A study of Mus musculus with 12 samples.

Results

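Genes named Gm and a number are predicted mouse genes that carry a placeholder symbol because no function has been assigned to them. They were chosen here by that symbol alone, in any symbol column of either table, and 73 of the 1247 genes with YTHDF1 peaks in mouse striatum met it. Of the 73, 65 were listed after cocaine and 24 after saline, with 16 in both, 49 in cocaine alone and 8 in saline alone. RefSeq's GRCm38.p6 annotation holds the symbols of all 73 and classes 55 of them as long non-coding RNA (lncRNA), 15 as protein-coding and 3 as pseudogenes. A further 348 listed genes have no symbol in the tables, so Gm-named genes among them were not counted.

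YTHDF1 is a cytoplasmic reader of N6-methyladenosine (m6A), a methyl mark on RNA, and is known for promoting translation of the messages it binds. Long non-coding RNAs can carry m6A as well, and many of them start inside or beside a protein-coding gene, often on its opposite strand. Such natural antisense RNAs are abundant in brain, and placeholder names are common among them.

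The series compares wild-type C57BL/6J mice given cocaine with wild-type C57BL/6J mice given saline, in striatum, and the labels give no dose, time or age. Each treatment has 3 libraries of RNA precipitated with a monoclonal anti-YTHDF1 antibody after ultraviolet crosslinking (CLIP) and 3 input libraries, 12 in all. The values are whole numbers of CLIP peaks per gene in the 6 CLIP libraries, and no input value was analysed here, so none is corrected for RNA abundance. The labels call the cells striatal neurons although the protocol lysed whole tissue, and they do not say whether each library is a different animal, so the spread behind a p-value may be technical. Of 13 markers of striatal projection neurons, 1 was listed (Gad1, in saline alone with a mean of 3 peaks), against 1 of 6 oligodendrocyte, 0 of 6 astrocyte, 2 of 6 microglial and 1 of 4 endothelial markers. Cnp (oligodendrocytes) had means of 38.7 and 3.33 peaks after cocaine and saline, P2ry12 (microglia) 20.7 and 3, and Cx3cr1 (microglia) 29.3 in cocaine alone, while Pecam1 (endothelium) had a mean of 3 in saline alone. The part of other cell types in the Gm-named peaks was not tested. Listed peaks per library ranged from 24770 to 25528 after cocaine and from 3720 to 3944 after saline, and read depth is unknown. A listed gene had at least 1 peak in every library of its table and a mean of at least 6.33 peaks in the cocaine table or 1.33 in the saline table. A gene missing from a table is below that cutoff and was not set to 0.

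Start sites of 4 lncRNAs that were listed in both treatments are shown first. They are a selection, and Gm33155, with more peaks after cocaine than Gm13872, is not shown. Each line gives 50 bases before the start in lower case and the first 50 transcribed bases in capitals, 5′ to 3′, from RefSeq (GRCm38.p6).
Gm15083 (chr6:114004706-114004805, plus strand): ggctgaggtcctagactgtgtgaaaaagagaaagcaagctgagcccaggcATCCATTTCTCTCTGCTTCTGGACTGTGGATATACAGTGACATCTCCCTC
Gm11149 (chr9:49518238-49518337, plus strand): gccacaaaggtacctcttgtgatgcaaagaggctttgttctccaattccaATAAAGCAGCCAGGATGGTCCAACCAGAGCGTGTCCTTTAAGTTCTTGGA
Gm14858 (chrX:102252601-102252700, plus strand): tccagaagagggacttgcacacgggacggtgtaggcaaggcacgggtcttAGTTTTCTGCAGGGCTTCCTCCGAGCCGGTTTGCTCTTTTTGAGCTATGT
Gm13872 (chr2:102746711-102746810, minus strand): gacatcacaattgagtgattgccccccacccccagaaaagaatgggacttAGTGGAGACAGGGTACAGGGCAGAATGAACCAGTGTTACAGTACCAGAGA
The tables give no peak positions, so where YTHDF1 peaks lay relative to these starts is unknown. The letters GGACT, the DNA spelling of a common form of the m6A consensus, occur in the transcribed part of the Gm15083 start shown. RefSeq gives Gm15083 a further start site (chr6:114041269-114041368, plus strand), whose first 50 transcribed bases do not hold these letters. On the strand of the RNA, 5 of the 61 start sites of Gm-named genes in the RefSeq table held GGACT within the first 50 transcribed bases (8.2%), against 5.76% of all 32851 start sites. On either strand (GGACT or AGTCC) the shares were 11.5% and 10.4%. The 61 start sites belong to 58 of the 73 genes, and a match is only a match of letters.

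Most of the Gm-named lncRNAs lay within or across protein-coding genes. Of the 55, 45 overlapped a coding gene in the annotation (81.8%), whereas 3525 of all 10127 Gm-named lncRNAs in RefSeq did (34.8%). The median span of the listed lncRNAs was 14814 bases, against 8283 for all. The strand of both partners was known for 30 of the 45, and the lncRNA lay opposite to a coding gene in all 30, in 1 of them (Gm41410) with another coding gene on its own strand too. Among all Gm-named lncRNAs of known orientation, 90.9% lay opposite to every overlapped coding gene of known strand and 8.42% on the same strand. No test was made of these shares, which compare a list with an annotation. The annotation was not limited to genes with an Ensembl ID, by which genes were listed, or to RNAs present in striatum.

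The coding genes overlapped by the listed lncRNAs have varied roles, and those described here are a selection, not a ranking. Gm14329, Gm16958, Gm3693 and Gm12709 below had cocaine means of 16 to 20 peaks. Higher means belonged to Gm10785 at Cryzl1 (34), Gm12359 at Msl1 (33), Gm10684 at Jaml and Scn2b (29) and Gm17227 at Mark2 (27.3). Gm15083 runs opposite to Atp2b2, which encodes a plasma membrane calcium pump, and Gm11149 lies wholly within Ncam1, a neural cell adhesion gene. Gm13872 lies wholly within Slc1a2, the gene of the main astrocytic glutamate transporter, on the opposite strand. Gm10644 overlaps Adgrl1, which encodes the adhesion receptor latrophilin, and Gm26788 lies within Dst, which encodes the cytoskeletal linker dystonin. Gm14329 lies within Grin2b, an NMDA receptor subunit gene, Gm16958 within Ank2, an ankyrin gene, Gm3693 within Slc8a3, a sodium-calcium exchanger gene, and Gm12709 overlaps Sgip1, a gene of endocytosis. Under these symbols, none of these coding genes was in either table.

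Few of the overlapped coding genes were themselves listed, although their share was above that of all coding genes, a difference that was not tested. Of 62 different coding genes that overlap a listed Gm-named gene, leaving out those with a Gm name or with the same gene ID, 6 were listed under their symbols (9.68%), against 3.36% of all 21900 coding genes. Tenm4, a teneurin gene of cell adhesion, had 16, 7 and 5 peaks after cocaine and 2, 2 and 1 after saline, and hosts Gm15413 on the opposite strand, which had 7, 9 and 6 peaks in cocaine alone. Rgs20, a regulator of G protein signalling, had 23, 3 and 9 peaks and hosts Gm16041, which had 12, 29 and 2. Library 1 was the highest for Rgs20 and library 2 for Gm16041. Rbm4b, which encodes an RNA-binding protein and overlaps the coding gene Gm21992, had 24, 10 and 19 peaks. Traf3ip2, an adaptor gene of interleukin-17 signalling, had 39, 54 and 38 peaks but shares 1.3% of the span of Gm16364, which had 17, 4 and 11. Donson, a DNA replication gene, had 12, 9 and 10 peaks and touches Gm10785 over 0.13% of its span, and Asap2, a GTPase-activating protein gene, had 9, 6 and 5 and contains Gm40855, with 12, 14 and 7. A930011G23Rik, itself an lncRNA, contains Gm38691 and had 3, 12 and 11 peaks after cocaine and 3, 2 and 2 after saline, against 21, 22 and 28 for Gm38691 in cocaine alone. The library kit keeps the strand of the RNA, but whether peaks were given to genes by strand is not given in the sources used here. A Gm-named gene's peaks and those of its overlapping partner therefore cannot be told apart in these tables.

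Among the 16 genes listed in both treatments, every mean was higher after cocaine, by 3.15 to 13 times in raw peaks, with a median of 5.33 times against 4.54 over all 251 shared genes. For 15 of the 16, every cocaine library exceeded every saline library, as it did for 77.7% of all shared genes. No Gm-named gene had every cocaine library below every saline library, against 0.398% of all shared genes. The gene whose cocaine and saline libraries overlapped was Gm5577, a lncRNA gene on chromosome 6, with 21, 16 and 3 peaks after cocaine and 3, 1 and 4 after saline. Because the cocaine libraries held several times more listed peaks than the saline libraries, a raw ratio above 1 was common to most genes. The peak number per library is drawn for all 16 in the plot of shared genes.

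**Figure D1:**
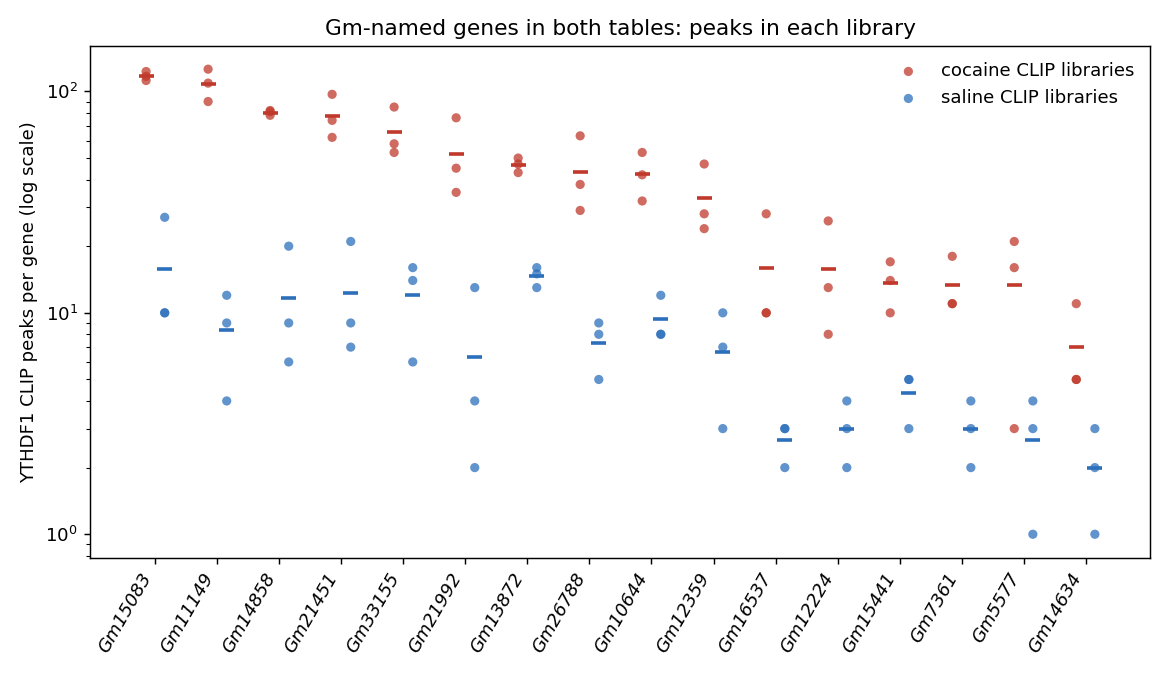
YTHDF1 CLIP peaks per gene (log scale) in each of 3 cocaine (red) and 3 saline (blue) libraries for the 16 Gm-named genes listed in both treatments, with bars at the means. Cocaine and saline points overlap for Gm5577 (3 peaks in 1 cocaine library, 1 to 4 in saline) and are apart for the other 15 genes.

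Gm15083, the lncRNA opposite Atp2b2 on chromosome 6 (114004756 to 114052267), led the Gm-named genes with 112, 123 and 117 peaks after cocaine (117 ± 5.51, SD, n = 3) and 27, 10 and 10 after saline (15.7 ± 9.81). The cocaine libraries were close together, while saline library 1 stood well above the other two. Gm11149, within Ncam1 on chromosome 9 (49518288 to 49568025), had 109, 90 and 126 peaks after cocaine (108 ± 18) and 4, 9 and 12 after saline (8.33 ± 4.04), which is 13 times as many. Its ratio was the highest of the 16. Gm14858, a lncRNA gene on the X chromosome (102252651 to 102257689) that overlaps no annotated gene, had 78, 82 and 81 peaks after cocaine (80.3 ± 2.08) and 6, 9 and 20 after saline (11.7 ± 7.37). Its cocaine libraries were the closest together of all Gm-named genes, with a coefficient of variation (CV, SD over mean) of 2.59%, while its saline library 3 stood above the other two.

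Gm21451, a protein-coding model on chromosome 14 (69390417 to 69477453) that overlaps the coding Gm16867, had 62, 74 and 97 peaks after cocaine and 9, 21 and 7 after saline. Gm33155, a lncRNA gene on chromosome 16 (13463630 to 13468783), had 58, 85 and 53 peaks and 16, 6 and 14. Gm21992, for which RefSeq gives the synonym Rbm14-rbm4, spans the RNA-binding protein genes Rbm14 and Rbm4 on their own strand on chromosome 19 (4742913 to 4811634). It had 76, 35 and 45 peaks after cocaine and 13, 2 and 4 after saline, with library 1 the highest in each treatment. Libraries are numbered by the order of their columns, and equal numbers have no known relation. Rbm14 and Rbm4 were not listed under their symbols.

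Gm13872, the RNA within Slc1a2 on chromosome 2 (102743651 to 102746760), had 47, 50 and 43 peaks after cocaine (46.7 ± 3.51) and 15, 16 and 13 after saline (14.7 ± 1.53). The libraries were close together in both treatments, and its saline mean was close to that of Gm15083 although its cocaine mean was well below. Its ratio of 3.18 was the second lowest of the 16 Gm-named genes, above Gm15441 (3.15), while ratios over all 251 shared genes went down to 0.657. Gm15441 overlaps Txnip, a gene of redox and glucose control, and had 14, 17 and 10 peaks after cocaine and 3, 5 and 5 after saline. Gm26788, within Dst, had 63, 38 and 29 peaks and 5, 9 and 8. Gm10644, at Adgrl1, had 42, 53 and 32 and then 12, 8 and 8, and Gm12359, at the chromatin gene Msl1, had 28, 47 and 24 and then 10, 7 and 3. The groups did not overlap for any of these genes.

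The remaining Gm-named genes in both tables had means between 7 and 16 peaks after cocaine and between 2 and 3 after saline. Gm16537, at Gpd1, a glycerol phosphate dehydrogenase gene, had 10, 28 and 10 peaks after cocaine and 2, 3 and 3 after saline, with 1 cocaine library far above the others. Gm12224, within the fatty acid activation gene Acsl6, had 13, 8 and 26 and then 3, 2 and 4. Gm7361, a coding gene described below, had 11, 11 and 18 and then 3, 2 and 4. Gm14634, which touches the Mediator gene Med14 on the X chromosome, had 5, 11 and 5 and then 3, 2 and 1, the lowest of the 16 in both treatments.

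Per kilobase of annotated span, the order of the Gm-named genes changed. Among the 16, Gm14858 (15.9 peaks per kb after cocaine, 2.32 after saline), Gm13872 (15 and 4.72) and Gm33155 (12.7 and 2.33) were densest, with spans of 5039, 3110 and 5154 bases. Gm15083 had 2.47 and 0.33 peaks per kb, and Gm7361 and Gm14634 had 0.155 and 0.118 after cocaine. In saline, Gm13872 was above Gm33155 and Gm14858 by this measure. The densest of all was Gm10222, a pseudogene of 297 bases on chromosome 1 (24612404 to 24612700), with 9, 12 and 8 peaks in cocaine alone (32.5 per kb), followed by Gm38402 with 21.4. The gene models behind the peak counts may be longer or shorter than these RefSeq spans.

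Whether a gene took a larger or smaller part of its library after cocaine was tested with edgeR's quasi-likelihood test over all shared genes, on totals of the tested genes scaled by TMM factors. Of the 16 Gm-named genes, 11 had enough peaks to be tested, and the 5 left out (Gm16537, Gm12224, Gm7361, Gm5577 and Gm14634) had saline means of at most 3 peaks. Gm11149 alone passed an adjusted p of 0.05, with a higher share after cocaine (1 of 11, 9.09%). Over all 202 genes tested, 10.4% passed with a higher and 17.8% with a lower share, 28.2% in either direction, and the Gm-named share of higher calls was near the 10.4% of all genes. Without normalization factors 31 genes were higher and 29 lower over all genes, in place of 21 and 36, and the Gm-named count stayed at 1 higher and 0 lower. The median log2 difference in share was 0.25 over the 11 and -0.02 over all 202. A p above the threshold does not show that the other 10 did not differ.

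Gm11149 took 0.815, 0.682 and 0.942% of the tested peaks in the cocaine libraries and 0.129, 0.3 and 0.369% in the saline libraries, so the groups did not overlap. The log2 difference in share, cocaine minus saline, was 1.39 (SE 0.36, edgeR adjusted p = 0.00917). With the total of all listed peaks as library size and no TMM factors, it was 0.98 and lost the call (edgeR adjusted p = 0.0592). Without saline library 1, where the share of Gm11149 was lowest, it was 1.04 and just under the threshold (edgeR adjusted p = 0.0495). Gm21992 (log2 difference 0.73, SE 0.54), Gm15083 (0.60, SE 0.33) and Gm14858 (0.48, SE 0.37) came next and were not called. For Gm15083 the saline shares were 0.873, 0.333 and 0.307% and the cocaine shares 0.838, 0.932 and 0.875%. On these unscaled shares, saline library 1 lay within the cocaine range. Without that library its log2 difference was 1.23 (edgeR adjusted p = 0.0148). Gm14858 likewise reached 1.09 (edgeR adjusted p = 0.0494) without saline library 3, in which its share was 0.615% against 0.583, 0.622 and 0.606% in cocaine.

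At the other end, Gm13872 took 0.351, 0.379 and 0.322% of the tested peaks after cocaine and 0.485, 0.532 and 0.4% after saline. The groups did not overlap, and the log2 difference of -0.64 (SE 0.33) did not pass the threshold (edgeR adjusted p = 0.182). With all listed peaks as library size it was -1.04 and passed (edgeR adjusted p = 0.0245), so that under this scaling 0 Gm-named genes were higher and 1 was lower, in place of 1 higher and 0 lower. That scaling moved the median of all tested genes to -0.43. Gm15441 had a log2 difference of -0.65 (SE 0.44), and Gm10644, Gm12359, Gm33155, Gm26788 and Gm21451 lay between -0.13 and 0.34, with signs that turned under some settings.

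**Figure D2:**
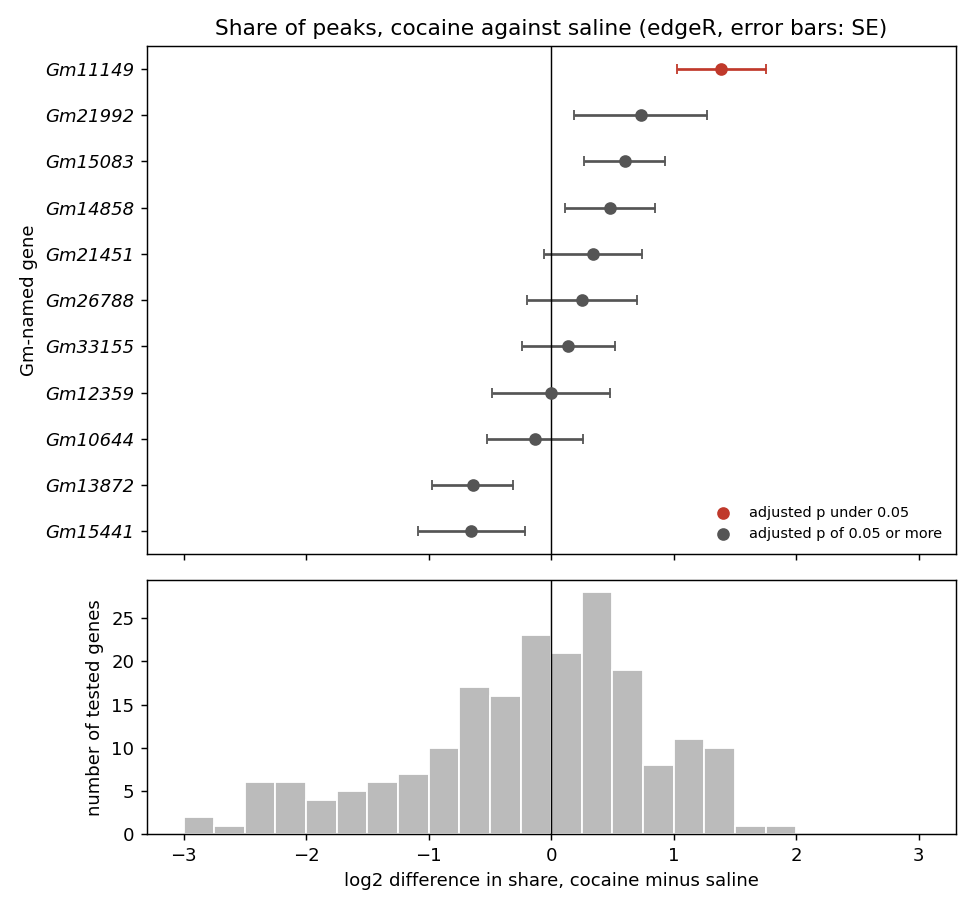
Upper panel: log2 difference in share of peaks, cocaine minus saline, with its standard error, for the 11 Gm-named genes tested, Gm11149 in red as the only one with an adjusted p under 0.05. Lower panel: the number of genes at each log2 difference among all 202 tested, whose median was -0.02.

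Most Gm-named genes, 49 of the 65 in the cocaine table, had no saline value. The share also listed in saline was 24.6% (16 of 65), against 23.9% of all cocaine genes and 23.4% of those with any other symbol. It followed the number of peaks: 6 of the 6 Gm-named genes above 50 peaks after cocaine were in the saline table, 4 of 7 between 30 and 50, 5 of 32 between 10 and 30, and 1 of 20 at 10 or fewer. For other genes with a symbol the corresponding shares were 92.9, 48.8, 22.7 and 10%. Of the Gm-named saline genes, 66.7% were in the cocaine table, against 55.9% of all saline genes. These counts depend on cutoffs that differ between the tables, and at a mean above 6 peaks in both, 55 would be in cocaine alone, 0 in saline alone and 10 in both.

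Gm38505, a lncRNA gene on chromosome 3 (34298173 to 34351698), had most peaks among those in cocaine alone, 56, 44 and 25 (41.7 ± 15.6, SD, n = 3). Gm10785, opposite to the quinone oxidoreductase gene Cryzl1, had 42, 29 and 31, and Gm38402, whose gene ID also carries the pseudogene symbol Zfp133-ps, had 35, 28 and 37. Gm9968, within the transcription factor gene Zbtb20, had 21, 29 and 24. Gm10785, Gm38402, Gm9968 and Gm38691 lay within a narrow range over the libraries, while Gm38505 was lower in library 3 than in the others. Gm10684, opposite to the sodium channel subunit gene Scn2b, had 15, 41 and 31 peaks, and Gm17227, within the kinase gene Mark2, had 17, 27 and 38.

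Several of the next genes varied widely between libraries. Gm14965, at Rasgrp2, which encodes a guanine nucleotide exchange factor, had 6, 26 and 34 peaks, and Gm14329, within Grin2b, had 26, 3 and 31. Gm16958, within Ank2, had 3, 30 and 25. In each of these 3 genes, 1 library had 3 or 6 peaks and the other two were far above. Gm13944, within the zinc finger gene Zfp385b, had 32, 9 and 22 peaks, and Gm12592, at Pik3ip1 and Patz1, had 13, 15 and 33. Gm15614, on chromosome 5, had 14, 28 and 20, Gm3693, within Slc8a3, 15, 24 and 13, and Gm11714, within the lipid transfer gene Pitpnc1, 27, 16 and 7. The other genes in cocaine alone ran from Gm12709, with 20, 11 and 17 peaks, down to Gm14023, at the interleukin gene Il1a, with 8, 10 and 2. The plot of cocaine-alone genes gives all 49.

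**Figure D3:**
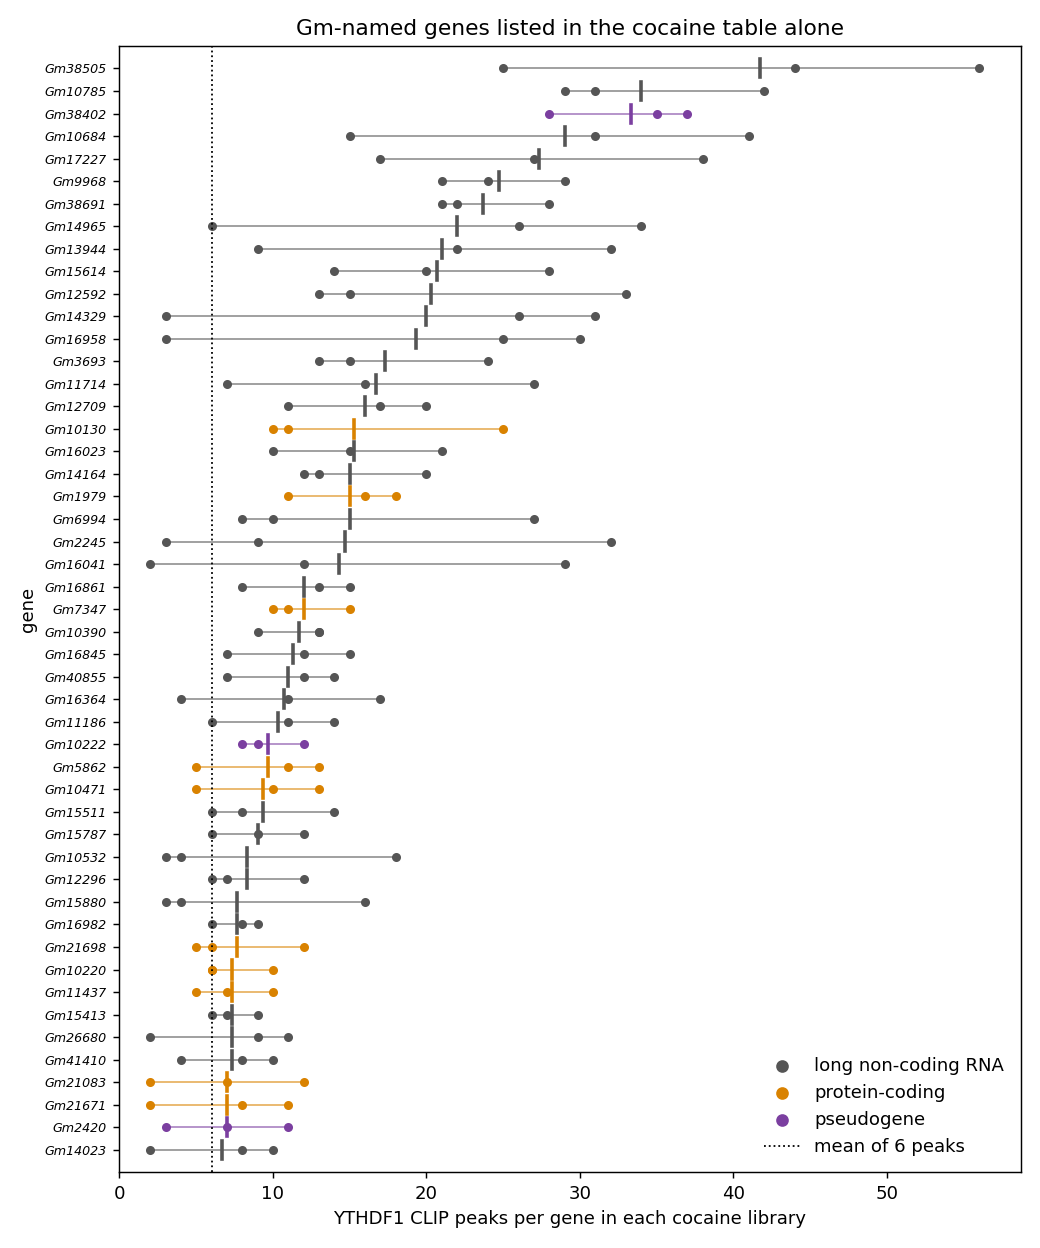
Peaks in each of the 3 cocaine libraries (points), their range (line) and mean (tick) for the 49 Gm-named genes listed in the cocaine table alone, coloured by RefSeq class, with a dotted line at a mean of 6 peaks. Means run from 41.7 in Gm38505 to 6.67 in Gm14023, and the points of genes such as Gm14329 (3 to 31 peaks) spread widely.

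Across the 65 cocaine genes the CV between libraries ranged from 2.59 to 104% with a median of 38.4%, close to the 37.3% of all cocaine genes. It was 22.9% in the 13 above 30 peaks and 44% in the 20 with 10 or fewer. The highest belonged to Gm2245, opposite to the blood cell adaptor gene Fyb, with 9, 32 and 3 peaks. Libraries 1, 2 and 3 gave the single highest value for 14, 32 and 18 of the 65. Over all cocaine genes they did so for 33.8, 29.7 and 29.1%. Gm-named genes held 5.62, 6.23 and 5.71% of the listed peaks of the cocaine libraries (5.85 ± 0.331, SD, n = 3) and 3.96, 3.52 and 3.55% of those of the saline libraries (3.68 ± 0.245). The groups did not overlap. Among the genes in both tables, the 16 held 5.38 ± 0.208% and 3.73 ± 0.338%. Rik-named genes held 6.87 ± 0.122% and 4.6 ± 0.339%, and genes named as the opposite strand of a host held 4.64 ± 0.425% and 3.05 ± 0.345%, so their percentages were larger in the cocaine table as well. All genes with any other symbol, these 2 classes included, held 54.8 ± 0.559% and 52.2 ± 0.854%. Genes without a symbol went the other way, with 39.4 ± 0.657% and 44.2 ± 1.05%. The largest mean among them was 1645 peaks after cocaine and 825 after saline, where library totals were 3720 to 3944. Percentages of listed peaks, mainly in saline, therefore depend on single genes. No p is given for these sums.

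The 8 genes listed in saline alone had few peaks. Gm15816, within the erythroid ankyrin gene Ank1, had 3, 4 and 4, and Gm16863, on chromosome 16, had 4, 3 and 4. Gm14635, on the X chromosome, had 2, 3 and 3, and Gm14569, a coding gene with the RefSeq synonym Kiaa1210, had 2 in every library. Gm17660, a coding gene with the synonym Scpppq1, had 2, 1 and 3, and Gm7568, within Stau2, which encodes a double-stranded RNA-binding protein of neuronal RNA transport, had 1, 3 and 1. Gm12374 had 1, 2 and 1 and Gm17750 1, 1 and 2. All were below a mean of 6 peaks, so that a cocaine value up to the cutoff of that table may exist for each.

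Of the 15 protein-coding members, 9 on chromosome 5 had near-identical windows around the start, as did Speer4a, a testis gene of the glutamate-rich SPEER proteins. Of these 9 members, 8 lie in a cluster of 315 kb (25949797 to 26264312), and Gm21083 lies at some distance on the same chromosome. The 300-base windows hold 250 bases before the start and the first 50 transcribed bases. Between the 9 members they were 91.8 to 100% identical over 225 to 300 aligned bases in all 36 pairs, with a median of 96%. The stretch shared by all 9 windows is shown for 5 of them, and it lies wholly or mostly before the start. Transcripts of these genes were not compared, so how far reads could match several of them was not tested. Capitals mark bases that differ from the majority of the 9.
Gm7361 (chr5:26257512-26257736, plus strand): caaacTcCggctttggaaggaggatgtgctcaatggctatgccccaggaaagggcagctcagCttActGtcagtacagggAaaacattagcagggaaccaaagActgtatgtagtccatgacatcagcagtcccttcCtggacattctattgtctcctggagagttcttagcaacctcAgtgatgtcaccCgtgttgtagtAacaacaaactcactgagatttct
Gm1979 (chr5:26004753-26004976, minus strand): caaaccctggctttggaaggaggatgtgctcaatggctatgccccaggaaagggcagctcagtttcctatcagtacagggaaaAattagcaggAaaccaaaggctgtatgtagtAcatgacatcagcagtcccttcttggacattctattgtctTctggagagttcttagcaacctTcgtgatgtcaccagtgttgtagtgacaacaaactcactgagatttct
Gm5862 (chr5:26022917-26023140, minus strand): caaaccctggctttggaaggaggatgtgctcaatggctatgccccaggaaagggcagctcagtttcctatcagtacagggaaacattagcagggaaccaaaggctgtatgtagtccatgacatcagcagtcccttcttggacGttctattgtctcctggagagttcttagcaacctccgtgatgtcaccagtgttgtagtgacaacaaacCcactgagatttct
Gm10471 (chr5:26089247-26089470, minus strand): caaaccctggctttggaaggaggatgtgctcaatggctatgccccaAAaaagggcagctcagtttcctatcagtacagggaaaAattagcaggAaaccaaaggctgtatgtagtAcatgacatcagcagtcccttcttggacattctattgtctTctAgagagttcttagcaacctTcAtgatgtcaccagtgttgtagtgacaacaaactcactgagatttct
Gm21083 (chr5:15577087-15577311, plus strand): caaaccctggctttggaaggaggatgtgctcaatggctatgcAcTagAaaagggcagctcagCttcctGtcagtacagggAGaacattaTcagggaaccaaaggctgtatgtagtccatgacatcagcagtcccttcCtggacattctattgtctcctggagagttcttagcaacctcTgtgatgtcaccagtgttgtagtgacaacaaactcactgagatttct
Over the aligned stretch of 225 columns, 197 were the same in all 9 genes, and the windows of Gm21698, Gm5862 and Gm10220 did not differ from each other over their aligned bases. If transcript reads match several copies, the counts of these genes may depend on how such reads were assigned, which is unknown. Whether reads did so was not tested.

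The 9 genes had similar, low numbers of peaks in the cocaine table, with means of 7 to 15. Gm1979 had 11, 16 and 18 peaks, Gm7361 11, 11 and 18, and Gm7347 11, 10 and 15. Gm5862 had 13, 11 and 5, Gm10471 5, 10 and 13, and Gm21698 6, 5 and 12. The lowest were Gm10220 with 6, 10 and 6, Gm21671 with 8, 11 and 2 and Gm21083 with 12, 2 and 7. Single genes varied between libraries, and the sum over the 9 was 83, 86 and 96 peaks (88.3 ± 6.81, SD, n = 3). A sum of separate counts varies relatively less than its parts. Only Gm7361 was also in the saline table. Its annotated span of 86100 bases (26178213 to 26264312, plus strand) is far longer than the others. Its start-site window (26257512 to 26257811) lies near the end of that span, so the span may not describe the RNA from this start. RefSeq's start-site windows include 22 genes with a window at least 85% identical to that of Gm7361 over at least 150 bases, all on chromosome 5, and 12 of them were listed. The 3 without a Gm name were Speer4a with 13, 12 and 17 peaks, 5031410I06Rik with 16, 14 and 12 and Speer4b with 3, 10 and 17, all in cocaine alone.

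**Figure D4:**
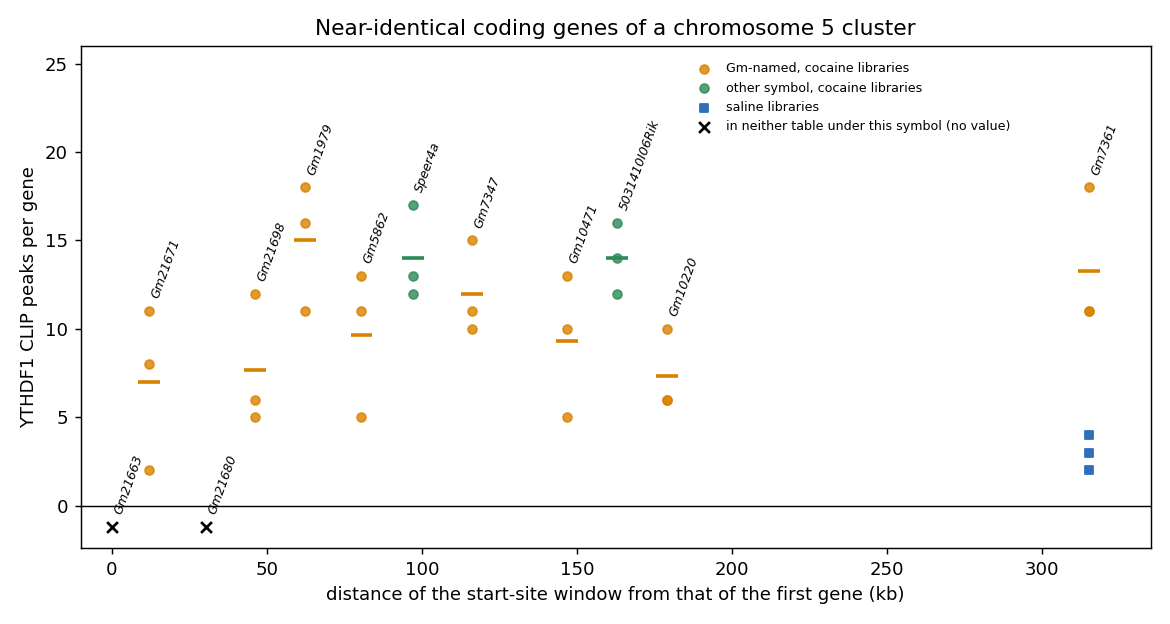
Peaks per gene in each cocaine library (circles, bars at the means) and, for Gm7361, each saline library (squares) along the chromosome 5 cluster. Its genes have near-identical start-site windows and are placed by distance in kb from the first window. Listed genes lie between 2 and 18 peaks after cocaine, and crosses below the axis mark genes in neither table.

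The other protein-coding members were Gm21451 and Gm21992, described above, Gm14569 and Gm17660 of the saline table, and 2 in cocaine alone. Gm10130, on chromosome 2, had 11, 10 and 25 peaks, and Gm11437, within the acetyl-CoA carboxylase gene Acaca on the opposite strand, had 5, 10 and 7. Of the pseudogenes, Gm2420 had 7, 11 and 3 peaks beside Gm38402 and Gm10222. Gene IDs with a second symbol were 3, Gm38402 (Zfp133-ps), Gm40855 (Itgb1bp1) and Gm41410 (1700037C18Rik, with 4, 10 and 8 peaks), and the peaks of each may belong to either symbol.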

How the data were processed

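CLIP-seq was deposited as 2 tables, 1 per treatment, of whole-number counts of peaks per gene in 3 library columns without replicate numbers, with the authors' mean of them, used only as a check. The letter c or s in each table's name, used likewise in the labels' library names, gave its treatment. Cutadapt, STAR and the mm10 build are named in the submitters' processing notes; peak threshold, treatment of duplicates and multiply mapped reads, use of input and the peak-to-gene rule are not stated there. Repeated lines of a gene were counted once (1084 lines for 1049 genes, and 463 for 449).

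Gm-named genes were matched by symbol to RefSeq (GRCm38.p6), which gave classes, spans and overlaps; strands came from its start-site table. Start windows were compared by local alignment (Biopython 1.88). edgeR 4.0.16 was run on the 251 shared genes (filterByExpr, TMM, quasi-likelihood test, R 4.3.3), Benjamini-Hochberg adjusted over all 202 tested genes, with SE taken from the F statistic. The test was tested on simulated data: for cocaine against saline share, over 251 genes, it called 28.7% of 2-fold, 93.3% of 4-fold changes and 0.37% of unchanged genes. Every simulated gene had the same dispersion, so these rates may not hold for genes that vary more between libraries. Alternatives were other factors and library sizes, DESeq2 1.42.0, other filters, and leaving out each library. Genes named in the text are all in both tables, all in saline alone, the 15 with most peaks in cocaine alone, all coding ones and listed genes that overlap them; others were named for their overlap or spread after values were seen. The members and lists were chosen with earlier results of these data known.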

Additional observations from a re-analysis of the deposited data

How the results depend on the processing

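No paired analysis was possible because the columns carry no replicate number. Gm-named genes with a higher share numbered 1, but 0 with all listed peaks as library size (then 1 was lower), 1 to 2 with a library left out, and 11 of 11 on equal library sizes, a comparison of raw peaks added after seeing the data. Over all genes, 21 were higher and 36 lower, but 4 and 47 with all listed peaks as library size, 176 and 0 on raw peaks, 19 and 24 in DESeq2, and 9 to 20 and 28 to 33 with a library left out (9 higher without cocaine library 2, 13 without saline library 1). The median log2 difference of all tested genes was 0.19 without factors, -0.43 with all listed peaks as library size and 2.26 on raw peaks. Gm11149 kept its call in 12 of 13 planned settings (edgeR or DESeq2 adjusted p from 0.00342 to 0.0592). Changing the scaling moves all genes by 1 amount per library. Signs turned only where a share difference was not called in the main test. Gm10644 was 0.09 without factors and 0.00 at a mean above 6, Gm12359 0.21 without factors, 0.10 with RLE factors, 0.10 in DESeq2, 0.09 without a filter and 0.12 at a mean above 6. With all listed peaks as library size, Gm33155 was -0.26, Gm21451 -0.06 and Gm26788 -0.16. On raw peaks, Gm10644 was 2.17, Gm15441 1.63, Gm12359 2.29 and Gm13872 1.66. With a library left out, Gm10644 ranged from -0.31 to 0.08, Gm12359 from -0.36 to 0.39, Gm33155 from -0.16 to 0.39 and Gm26788 from -0.06 to 0.48. At a mean above 6 peaks in both tables, 0 Gm-named genes were in saline alone and 10 in both. Without that cutoff, all Gm-named genes held 9.65% of cocaine and 6.58% of saline peaks among genes with a symbol. Those in both tables held 5.38% of cocaine peaks among genes in both tables. The number of reads behind the peaks is unknown, which limits every comparison of levels; the cause of the other shifts was not tested.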
